A study of Homo sapiens with 3 samples.

Results

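The genes examined here were 10 cytokine genes: the colony-stimulating factors CSF1, CSF2 and CSF3, the interleukin 1 genes IL1A, IL1B and IL1RN, the interleukin 6 family genes IL6, IL11 and LIF, and the pentraxin PTX3. They were chosen by name, with their log2 ratios between these same libraries already known, and were found by matching Ensembl identifiers to the symbols. All 10 were among the 58381 genes of the deposited table. The table holds read counts of T24 cells, a human urothelial carcinoma line of the bladder, in 3 conditions with 1 library each. Ctrl cells were not irradiated, RT cells were irradiated, and RT + shHDAC6 cells were irradiated and carried a lentiviral shRNA against HDAC6, the cytoplasmic deacetylase of tubulin. The labels give 10 Gy for the irradiation and a control pLKO.1 vector with puromycin selection, whereas the results text of the study calls the comparator parental cells. A single shRNA was used, the time between irradiation and RNA extraction was not given in the sources used here, and no unirradiated shHDAC6 library was analysed here. With 1 library per condition nothing measures the spread between replicates, so no p-value is given and each ratio compares these libraries. Below, the irradiation comparison is RT over Ctrl, the shHDAC6 comparison is RT + shHDAC6 over RT, and the combined comparison is RT + shHDAC6 over Ctrl. Values given as a series of 3 stand in the order Ctrl, RT, RT + shHDAC6.

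Cytokines of these families are secreted proteins through which epithelial and tumour cells act on leucocytes. Colony-stimulating factors sustain and recruit macrophages and granulocytes. Interleukin 1 alpha and beta share a receptor on many cell types, and their antagonist IL1RN occupies it without signalling. The interleukin 6 family signals through the shared receptor subunit IL6ST to JAK kinases and STAT3, and PTX3 is a soluble pattern recognition protein made by many cells on exposure to interleukin 1. In irradiated and senescent cells several of these genes are known as parts of the secretory response.

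The RT library had more CSF1 RNA than Ctrl, and the library labelled RT + shHDAC6 had more CSF3, PTX3, IL1B and IL11 RNA than RT. HDAC6 RNA itself was only 1.15-fold lower in RT + shHDAC6 than in RT. The counts of the targeted gene in these libraries thus do not bear out a strong knockdown, and the name shHDAC6 stands here for the label. The paper reports lower HDAC6 mRNA by qPCR and lower HDAC6 protein by Western blot in its shHDAC6 T24 cells. CSF1 was 4.38-fold higher in RT than in Ctrl. CSF3 was 9.53-fold, PTX3 3.65-fold, IL1B 3.61-fold and IL11 2.49-fold higher in RT + shHDAC6 than in RT. For IL11 that ratio rests on 10 counts in RT. Against Ctrl, IL11 was 1.2-fold higher in RT + shHDAC6, within counting error of no change. LIF was abundant in all 3 libraries and differed by less than 1.5-fold between any of them. CSF2 had no count, and IL1A, IL1RN and IL6 had few.

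The libraries held 41811165, 35959265 and 35424086 counts. A gene with 3 counts, the one-sided limit that a count of 0 allows, stood at 0.0662, 0.0894 and 0.0857 CPM, the count scaled to library size with TMM factors. Intervals are 95% intervals (Clopper-Pearson for ratios, exact Poisson for levels above 0). With 1 library per condition they cover counting error only. No molecular identifiers separate PCR copies from independent molecules, so the intervals can be too narrow even for counting error. HDAC6 had 3098, 2383 and 2170 counts, with a log2 ratio of -0.20 (interval -0.28 to -0.11) in the shHDAC6 comparison. Among 15 urothelial markers, KRT18, KRT7 and GATA3 were well expressed in Ctrl and RT. In RT + shHDAC6, KRT7 was down to 597 counts and GATA3 to 709. The urothelial markers did not fall as a set. Of 10 with at least 10 counts in RT or RT + shHDAC6, 6 were above 0 on the log2 scale and 4 below. Their median log2 ratio in the shHDAC6 comparison was 0.14. The late differentiation markers UPK1B and KRT20 were at 0 in Ctrl and RT. UPK1A (18, 2 and 2 counts), UPK2 (3, 1 and 3) and UPK3A (0, 3 and 0) were scarce. Markers of cells that a pure line should lack were also counted. All 15 leucocyte markers had counts in every library, with sums of 695, 356 and 436, or 15.3, 10.6 and 12.5 CPM. CD163, a macrophage receptor, had 99, 44 and 56 of these counts. In bulk RNA, fewer cells of a type and less RNA per cell cannot be told apart. The part of such RNA in the results on the scarce genes was not tested, and its level is set beside them below.

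Cytokine mRNAs are known for AU-rich elements, runs of the pentamer ATTTA in the 3′ untranslated region that bring about rapid decay of the mRNA. Such elements were sought in the canonical GENCODE transcripts, a description that does not depend on the counts. Of the 10 genes, 9 held at least 1 ATTTA, against 70.9% of 18492 protein-coding genes with an untranslated region of at least 100 bases. At least 3 pentamers within 30 bases were found in 6 of the 10 genes and in 3.16% of all genes. The windows of those 6 genes are shown because the shared element is visible in the letters. They are read 5′ to 3′ on the strand of the gene, in GRCh38, with the pentamers in capitals.
CSF2 (chr5:132076077-132076106, plus strand): aaatATTTATTTATTTATTTATTTAagttc
CSF3 (chr17:40016979-40017008, plus strand): atgtATTTAtctctATTTAatATTTAtgtc
IL11 (chr19:55365942-55365971, minus strand): cagatcttATTTATTTATTTAtttcagtac
IL1B (chr2:112829994-112830023, minus strand): gcttccctATTTATTTATTTAtttgtttgt
IL1A (chr2:112774423-112774452, minus strand): ATTTAtatatgtATTTAtaaatatATTTAa
LIF (chr22:30240522-30240551, minus strand): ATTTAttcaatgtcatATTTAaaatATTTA

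In CSF2 5 pentamers overlapped without a gap, and in IL11 and IL1B 3 did, whereas those of CSF3, IL1A and LIF were spaced. The density was 25.2 pentamers per kb in CSF2, 14.1 in IL6, 9.84 in IL1B and 8.20 in CSF3, against a median of 1.64 over all genes. LIF and CSF1, the genes with the most counts, had long untranslated regions of 3198 and 2154 bases with 2.19 and 1.86 pentamers per kb. IL1RN, the antagonist, had none in 1143 bases.

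CSF1 (chr1:109910242-109930992, plus strand, GRCh38), the ligand that keeps macrophages alive, was the gene of the 10 with the most counts after irradiation. Its counts were 3329, 10791 and 9374, or 73.4, 322 and 268 CPM. Both irradiated libraries thus stood far above Ctrl. The log2 ratio was 2.13 in the irradiation comparison (interval 2.08 to 2.19) and 1.87 in the combined comparison (interval 1.81 to 1.92). The RT + shHDAC6 library lay slightly lower than RT (log2 ratio -0.26, interval -0.31 to -0.22), which is under 2-fold. Of the 1753 genes whose count in the higher library was within 2-fold of that of CSF1, 0 had a larger log2 ratio in the irradiation comparison; CSF1 was chosen with this ratio known.

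CSF3 (chr17:40015361-40017813, plus strand), which drives the production of neutrophils, showed another pattern. Its counts were 19, 19 and 189, or 0.419, 0.566 and 5.40 CPM. The unirradiated and irradiated control libraries were alike in counts, and the RT + shHDAC6 library stood apart from both. The log2 ratio of RT + shHDAC6 was 3.25 against RT (interval 2.57 to 4.02) and 3.69 against Ctrl (interval 3.0 to 4.45), whereas irradiation alone gave 0.44 (interval -0.56 to 1.43). Among 2627 genes of similar depth, 0 had a larger log2 ratio in the shHDAC6 comparison, again for a gene chosen with this ratio known. CSF2, the granulocyte-macrophage factor, had 0 counts in all 3 libraries, so its level was under the floors given above in each.

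IL1B (chr2:112829751-112836816, minus strand), the secreted form of interleukin 1 that needs cleavage by caspase-1, had 32, 17 and 64 counts. These correspond to 0.706, 0.507 and 1.83 CPM, with the RT + shHDAC6 library highest and the other libraries within counting error of each other (log2 ratio -0.48, interval -1.42 to 0.41). The shHDAC6 comparison gave a log2 ratio of 1.85 (interval 1.06 to 2.72), and the combined comparison 1.37 (interval 0.74 to 2.03). IL1RN had 14, 7 and 9 counts, and no difference was detectable at this depth: the log2 ratio was -0.56 in the irradiation comparison (interval -2.11 to 0.84) and 0.30 in the shHDAC6 comparison (interval -1.29 to 1.96). IL1A, an interleukin 1 that also acts inside the nucleus, had 3, 0 and 2 counts, at or under the floor in each library, and no ratio is given.

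Within a library, the ratio of agonist to antagonist counts is free of the scaling between libraries. There were 2.29 IL1B counts per IL1RN count without irradiation (interval 1.19 to 4.64), 2.43 after it (interval 0.957 to 6.93) and 7.11 in the shHDAC6 library (interval 3.52 to 16.3). The intervals overlapped. IL1A, IL1B and IL1RN lie on the same chromosome, between chr2:112773925 and chr2:113134016.

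Of the interleukin 6 family, LIF (chr22:30240453-30246759, minus strand), a factor that acts on stem cells and in cachexia, had 4468, 3876 and 4560 counts. At 98.5, 116 and 130 CPM it moved little, with a log2 ratio of 0.23 in the irradiation comparison (interval 0.17 to 0.29) and of 0.17 in the shHDAC6 comparison (interval 0.11 to 0.23). With library totals in place of TMM, the first of these was 0.012. IL11 (chr19:55364382-55370463, minus strand), known for stromal and fibrotic signalling, had 28, 10 and 26 counts, or 0.617, 0.298 and 0.743 CPM, with RT lowest. Its log2 ratio was -1.05 in the irradiation comparison (interval -2.26 to 0.034), past 2-fold with an interval that included no change, and 1.32 in the shHDAC6 comparison (interval 0.22 to 2.53). Both ratios rest on the same 10 counts in RT, and the combined comparison gave 0.27 (interval -0.56 to 1.09). IL6, the acute phase cytokine, had 10, 12 and 6 counts, and its log2 ratio in the shHDAC6 comparison was -1.06 (interval -2.76 to 0.46). That ratio was past 2-fold and within counting error of no change. With library totals it was -0.98, under 2-fold. Of the exon length of IL6, 9.91% overlaps genes on the other strand, and the strand setting of the counting was not given in the sources used here.

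PTX3 (chr3:157436850-157443633, plus strand), the long pentraxin, had 219, 274 and 1043 counts, or 4.83, 8.17 and 29.8 CPM. Its level was thus lowest in Ctrl, intermediate in RT and highest in the RT + shHDAC6 library. The log2 ratio was 0.76 in the irradiation comparison (interval 0.50 to 1.02), 1.87 in the shHDAC6 comparison (interval 1.67 to 2.06) and 2.63 in the combined comparison (interval 2.41 to 2.84). Only 4 of 4448 genes of similar depth had a larger log2 ratio in the shHDAC6 comparison, again for a gene chosen with this ratio known. An antisense-strand gene covers 3.77% of its exon length. Set against other cytokines of the same library, PTX3 had 0.0490, 0.0707 and 0.229 counts per LIF count, with no overlap between the counting intervals of the 3 libraries. PTX3 was chosen with its ratios known, and the share of all genes without such overlap was not computed. CSF3 had 0.594, 1.12 and 2.95 counts per IL1B count, so that it was the more abundant of the pair in RT + shHDAC6 (interval 2.21 to 3.99) and not told apart from it in RT (interval 0.550 to 2.29). IL1B had 0.146 counts per PTX3 count in Ctrl (interval 0.0975 to 0.212), 0.0620 after irradiation (interval 0.0356 to 0.101) and 0.0614 in the shHDAC6 library (interval 0.0469 to 0.0790). The interval of RT overlapped both of the others.

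**Figure D1:**
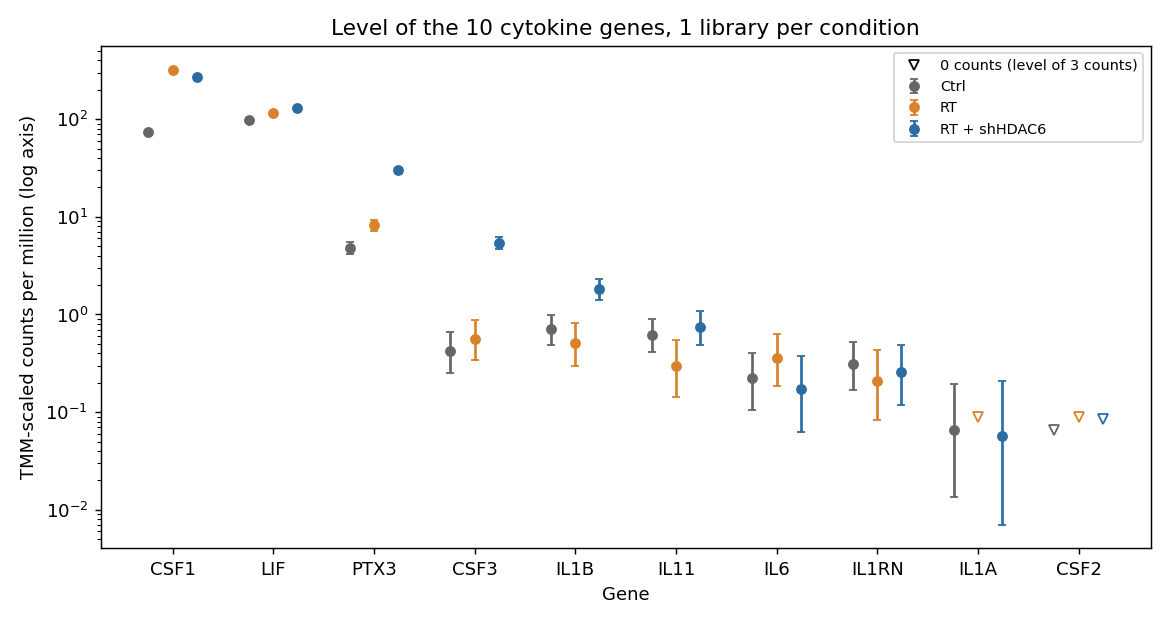
Level of each cytokine gene (x axis) in TMM-scaled CPM on a log axis, with 1 point per library and bars for the 95% Poisson counting interval; open triangles mark 0 counts, drawn at the level of 3 counts. CSF1 is higher in both irradiated libraries than in Ctrl, and PTX3, CSF3 and IL1B stand highest in RT + shHDAC6.

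CSF1 and LIF together took 96.0%, 97.7% and 91.2% of the counts of the 10 genes. The other 8 genes together had 325, 339 and 1339 counts. To set levels of genes side by side, counts were divided by exon length and expressed as TPM, the length-corrected share of each transcript in its library. In Ctrl the order was LIF (124 TPM, interval 121 to 128), CSF1 (68.5, interval 66.2 to 70.9) and PTX3 (12.5, interval 10.9 to 14.3). IL1B, IL11 and CSF3 followed at 1.15, 1.13 and 0.923 TPM with overlapping intervals, and IL1RN, IL6 and IL1A were under 0.5 TPM, again with overlapping intervals, that of IL1RN also overlapping that of CSF3. In RT the order of the first pair was reversed, with CSF1 at 240 TPM and LIF at 117 TPM. PTX3 was at 17.0 TPM, and the next genes, CSF3 at 0.997, IL1B at 0.658 and IL11 at 0.435 TPM, could not be ordered beyond counting error. In RT + shHDAC6 the order CSF1 (214 TPM), LIF (141), PTX3 (66.3), CSF3 (10.2), IL1B (2.55) and IL11 (1.16) had no overlap of intervals between neighbours. PTX3 moved from percentile 62.9 of protein-coding genes in RT to percentile 86.0 in RT + shHDAC6, and CSF3 from 40.5 to 55.7.

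A gene was called higher or lower when it differed at least 2-fold and had at least 10 counts in the higher library. In the irradiation comparison, 8 of the 10 genes had that depth. CSF1 was called higher, as were 4.81% of the 20267 genes examined, and IL11 was called lower, as were 9.17%. In either direction it was 14.0% of all genes. The other 6 cytokine genes were under 2-fold. Over all genes 975 were called higher and 1858 lower, and with library totals 523 and 2845. In the shHDAC6 comparison, 7 genes had the depth, of which CSF3, PTX3, IL1B and IL11 were called higher and IL6 lower. Over all 19013 genes the shares were 4.35% higher and 4.78% lower, or 9.14% in either direction. The median log2 ratio of the 7 was 1.32, against -0.0030 over all genes. In the combined comparison, CSF1, CSF3, PTX3 and IL1B of 8 genes were called higher and none lower, against 4.91% and 10.5% of 20374 genes, or 15.4% in either direction. With library totals 744 genes were higher and 2598 lower there, against 1001 and 2134 with TMM. The genes nearest the threshold were IL11 and IL6, at log2 ratios of -1.05 (the irradiation comparison) and -1.06 (the shHDAC6 comparison) inside it, and PTX3, at 0.76 in the irradiation comparison, outside. The 10 genes were chosen with earlier results of these libraries known, so these counts are a description.

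**Figure D2:**
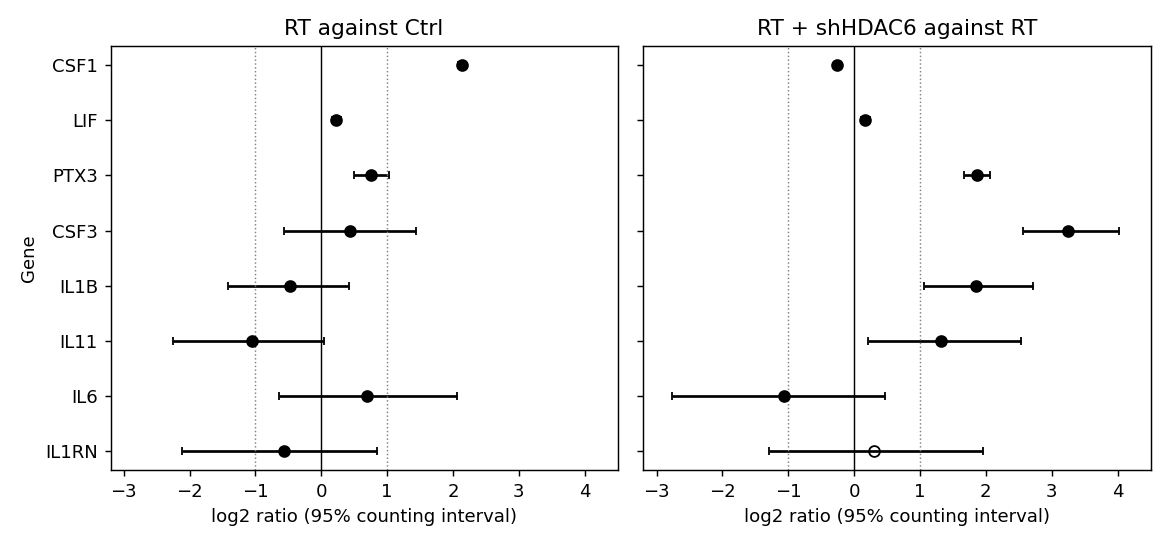
Log2 ratios (x axes) of the 8 cytokine genes that reach 10 counts in any library (y axis) for the irradiation comparison (first panel) and the shHDAC6 comparison (second panel), with 95% counting intervals; dotted lines mark 2-fold and the open point has under 10 counts in both libraries. CSF1 is past 2-fold with a narrow interval in the first panel, and CSF3, PTX3, IL1B and IL11 in the second have intervals above 0.

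The scarce genes were set beside the leucocyte marker counts of the same library, a ratio in which the scaling cancels. IL1RN had 0.0201 counts per leucocyte marker count without irradiation (interval 0.011 to 0.034), 0.0197 after it (interval 0.00785 to 0.0409) and 0.0206 in the shHDAC6 library (interval 0.00938 to 0.0395). These intervals are wide and overlap, since IL1RN had 14, 7 and 9 counts. IL1B was at 0.0460 and 0.0478 in Ctrl and RT, and at 0.147 in RT + shHDAC6 (interval 0.111 to 0.191). CSF3 was at 0.0273, 0.0534 and 0.433 (intervals 0.0318 to 0.0846 in RT and 0.364 to 0.515 in the shHDAC6 library). PTX3 went from 0.315 to 0.770 and 2.39. For IL11 (0.0403, 0.0281 and 0.0596) and IL6 (0.0144, 0.0337 and 0.0138) the intervals of the 3 libraries overlapped. For CSF3, PTX3 and IL1B the intervals of RT and RT + shHDAC6 did not overlap on this scale. These genes were chosen with their ratios known, and the share of all genes without such overlap was not computed. The part of leucocyte RNA in their values was not tested. ITGAM, an integrin of myeloid cells, was the only one of the 15 markers called higher in the shHDAC6 comparison, with 21 counts in RT and 51 in RT + shHDAC6. Over all genes 4.35% were called higher in that comparison.

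**Figure D3:**
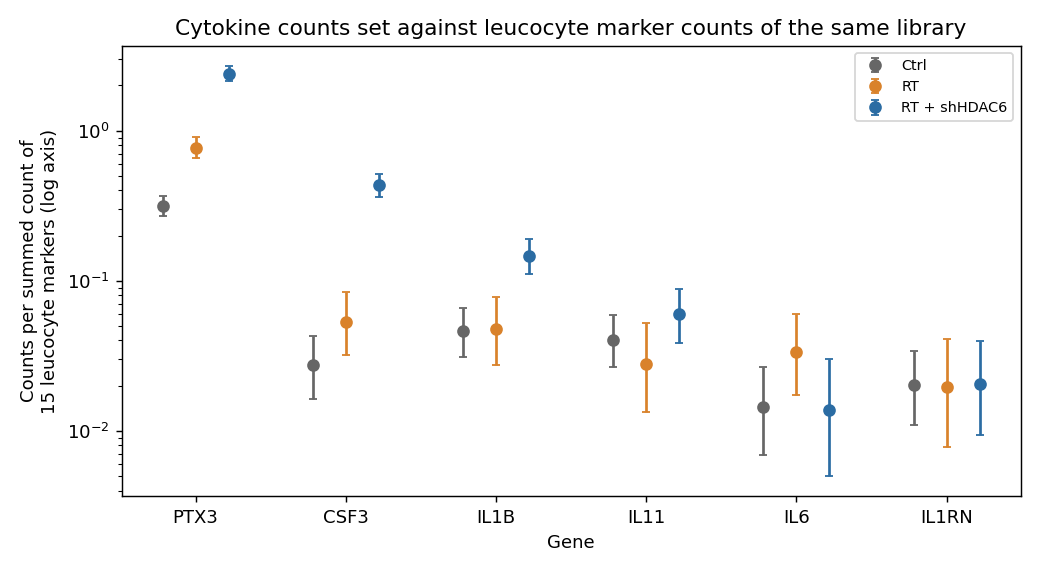
Counts of 6 cytokine genes (x axis) per summed count of 15 leucocyte markers in the same library (y axis, log scale), with 1 point per library and 95% Clopper-Pearson intervals. IL1RN lies near 0.02 in all 3 libraries, whereas PTX3, CSF3 and IL1B lie highest in RT + shHDAC6.

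Of the 12 receptor genes, 11 had at least 10 counts in the irradiation comparison; 1 was called lower (CSF2RB, with 32, 10 and 13 counts) and 0 higher, a share near the 9.17% of all genes called lower. In the shHDAC6 comparison, 0 of 10 were called, against 9.14% of all genes. The subunits shared by the interleukin 6 family were abundant. IL6ST, the signalling subunit, stood at 141, 176 and 181 TPM and OSMR, its partner for oncostatin M, at 149, 169 and 138 TPM. LIFR, which pairs with IL6ST to bind LIF, had 370, 178 and 190 counts, and IL6R and IL11RA had 338 and 523 counts in RT, and 32.5% of the exon length of IL11RA also belongs to an overlapping same-strand gene. IL1R1, the signalling receptor for interleukin 1, had 552, 271 and 173 counts. Its log2 ratios of -0.59 and -0.71 were each under 2-fold, and the combined comparison was called lower at -1.30 (interval -1.56 to -1.05). IL1RAP, its accessory chain, had 1655, 1067 and 1251 counts, and the decoy IL1R2 had 10, 9 and 8. CSF1R, the macrophage receptor for CSF1, had 113, 51 and 82 counts, CSF3R had 31, 12 and 25, and CSF2RA had none. The reference lists CSF2RA under separate identifiers. Reads that match separate copies may not have been counted, so its lack of counts is uncertain.

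Of 17 other ligands of the same families, 6 had at least 10 counts in the irradiation comparison. Of these 2 were called higher, against 4.81% of all genes. CLCF1, a ligand of the ciliary neurotrophic factor receptor, rose to 671 from 308 counts (1.56 on the log2 scale, interval 1.36 to 1.76) and stood at 574 in RT + shHDAC6. EBI3, a cytokine subunit, had 2, 11 and 8 counts, and its log2 ratio with irradiation was 2.90 with a wide interval of 0.70 to 6.11. IL18, an interleukin 1 family cytokine that also needs caspase-1, had 65, 47 and 16 counts, and the shHDAC6 comparison gave a log2 ratio of -1.62 (interval -2.54 to -0.77), opposite in sign to IL1B. CNTF had 93, 68 and 55 counts, with 38.5% of its exon length shared with a readthrough gene on the same strand, CTF1 had 24, 9 and 11, and IL33 had 38, 18 and 26. The remaining ligands had under 10 counts in every library.

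In the machinery that processes interleukin 1 and signals from its receptor, 1 of 17 genes with the depth was called in each of these comparisons, against 14.0% and 9.14% of all genes. CASP1, the protease that matures IL1B, had 39, 13 and 17 counts and was called lower in RT than in Ctrl (log2 ratio -1.15, interval -2.18 to -0.21). Leucocyte markers were also lower in RT, at a median log2 ratio of -0.31, against -0.062 over all genes. Of 12 with the depth, 2 were called lower, C1QB (77, 26 and 43 counts) and MS4A1 (22, 8 and 15 counts). The share of all genes called lower was 9.17%, and the interval of MS4A1 (-2.40 to 0.20) included no change. The part of leucocyte RNA in the values of CASP1 and CSF2RB was not tested. NLRP1, an inflammasome sensor, had 7314, 5465 and 2055 counts. It was level between the first pair (log2 ratio 0.015) and fell in RT + shHDAC6 by 1.47 on the log2 scale (interval -1.55 to -1.40). The adaptors and kinases of the receptor, among them MYD88 with 163, 97 and 91 counts and IRAK1 with 15299, 13342 and 14590, were not called.

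Of 17 transcription factor genes of cytokine promoters, 1 was called in each of the irradiation and shHDAC6 comparisons, FOSL1 and NFATC1 respectively, both higher. The shares of all genes called higher were 4.81% and 4.35%. FOSL1, an AP-1 subunit, had 4843, 10288 and 13416 counts, with a log2 ratio of 1.52 (interval 1.47 to 1.57) in the former and of 0.32 in the latter comparison. NFATC1 had 107, 41 and 145 counts, and its log2 ratio in the shHDAC6 comparison was 1.76 (interval 1.25 to 2.30). The median log2 ratio of the list was 0.031 in the irradiation comparison and 0.24 in the shHDAC6 comparison, with 14 of 17 genes above 0 in the latter. Medians over all genes were -0.062 and -0.003, with 9421 of 19013 genes above 0 in the latter. The list was chosen with earlier results of these data known, so these values are a description. Of 11 regulators of cytokine mRNA decay, 0 were called in either comparison, with log2 ratios between -0.60 and 0.36; at 14.0% and 9.14% of all genes called, 0 of 11 says little about this list. ZFP36 (tristetraprolin), which binds AU-rich elements and starts decay, had 836, 409 and 547 counts. Genes downstream of IL6ST were not called either, 0 of 8 in each; SOCS3, the feedback inhibitor, had 617, 847 and 1120 counts and was called higher only in the combined comparison (log2 ratio 1.23, interval 1.09 to 1.38). Among 8 pentraxins and partners, 1 of 5 with the depth was called lower with irradiation and 1 of 4 higher in the shHDAC6 comparison. Of all genes, 9.17% and 4.35% were so called, and 1 call among so few genes says little about this list. NPTX1, a neuronal pentraxin, had 1892, 912 and 3348 counts and rose in the shHDAC6 comparison by a log2 ratio of 1.81 (interval 1.71 to 1.92). TNFAIP6, a binding partner of PTX3 in matrix, had 19, 5 and 7 counts and was called lower in RT than in Ctrl. Its log2 ratio there was -1.49, with a wide interval of -3.27 to -0.022.

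The same ratios were taken over other genes with AU-rich elements. Leaving out the 10 genes, 437 genes with at least 3 pentamers within 30 bases had the depth in the shHDAC6 comparison. Their median log2 ratio was -0.017 and 2.97% were called higher, against 0.0010 and 3.14% over 13459 genes with an untranslated region. In the irradiation comparison the medians were -0.057 and -0.024. This comparison was chosen after the data had been seen.

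Promoter sequences from RefSeq (GRCh38.p14, 250 bases before to 50 after a start) were found for 7 of the 10 genes, in 10 promoters; CSF1, CSF3 and LIF were not among them. On either strand, an NF-kB form (3 G, any 2 bases, 3 T, 2 C) was present in 2 of the 7 genes (IL6 and IL1RN) and in 1.91% of 35116 promoters, and the AP-1 form TGANTCA in 3 (IL1A, IL1RN and IL11) and in 7.71%. The C/EBP form TTGCNNAA was present in IL1B, IL6 and PTX3 and in 10.5% of promoters, and the STAT form TTCNNNGAA in CSF2 and IL1B and in 7.66%. In IL6 the NF-kB form read GGGATTTTCC and began at -73 from the start. The C/EBP form of IL6 read TTGCACAA and began at -155. IL1A and IL1RN have several promoters each in that table. These are matches of letters only.

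The genes whose pair of log2 ratios (irradiation and shHDAC6 comparisons) lay nearest to that of each member with at least 100 counts were sought among 11280 protein-coding genes of that depth, by Euclidean distance over these 2 ratios, which come from the 3 libraries. CSF1 lay nearest to SLC19A1, the reduced folate carrier (2146, 6502 and 5991 counts, distance 0.13), and to CYP27B1, the vitamin D hydroxylase (179, 526 and 479 counts, distance 0.16). PTX3 lay nearest to WLS, which carries Wnt ligands to the cell surface (1311, 1371 and 5080 counts, distance 0.26), and LSR (667, 706 and 2893 counts, distance 0.26). CSF3 had no close neighbour: SERPINB2, an inhibitor of urokinase with 11, 17 and 115 counts, was at 0.84 and CCDC78 at 1.04. Of the exon length of SERPINB2 20.0% is shared with a same-strand gene, and of that of SLC19A1 13.9% overlaps the other strand. LIF lay within 0.25 of 1937 genes, the nearest being RAB29 and the ribosomal protein gene RPL18. For CSF3 and PTX3 that number was 0 and for CSF1 it was 6. The members were chosen with these ratios known, and a gene with an extreme ratio has few genes near it. These numbers therefore restate how far each ratio lies from the bulk of genes.

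**Figure D4:**
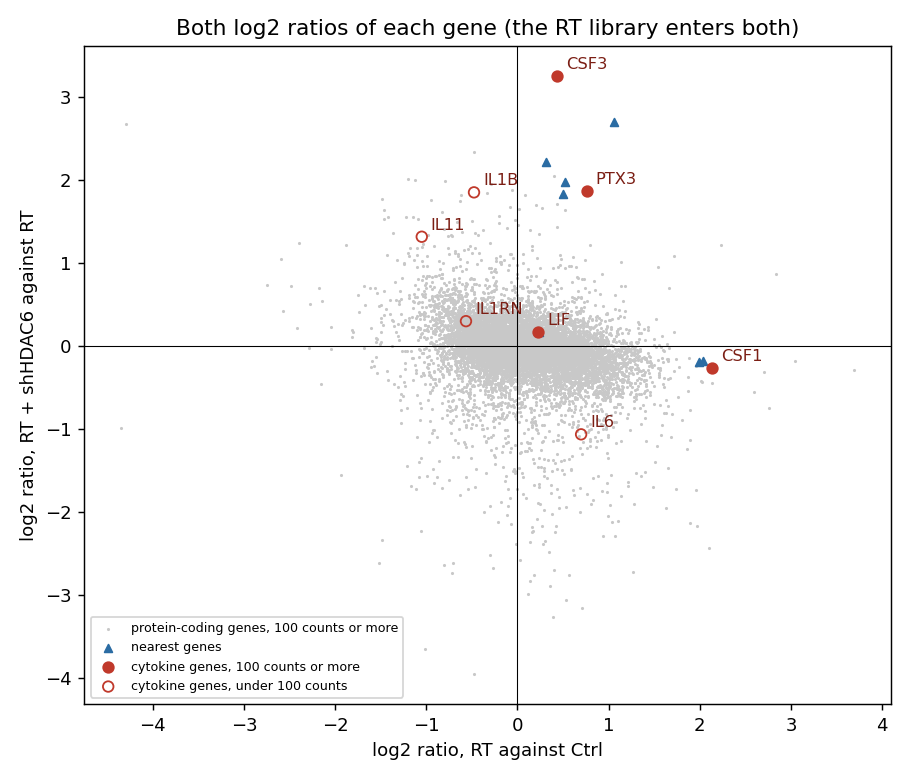
Log2 ratios of the irradiation comparison (x axis) and the shHDAC6 comparison (y axis), with 1 grey point per protein-coding gene of at least 100 counts, the 8 cytokine genes in red (open where under 100 counts) and their nearest genes as blue triangles. The RT library enters both axes. CSF3 and PTX3 stand high on the y axis, CSF1 far right on the x axis and LIF within the bulk of genes.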

How the data were processed

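RNA-seq of T24 cells in 3 conditions (Ctrl, RT and RT + shHDAC6; 1 library each, taken from the treatment labels) was examined. The authors used cutadapt for trimming, STAR for alignment to GRCh38 (2.6.1a in the submitters' processing notes; the paper's methods name a later version) and featureCounts with GENCODE release 28, and deposited whole-number counts without normalisation. The library kit differs between the labels and the paper. Identifiers of 57754 of 58381 genes matched GENCODE release 44, from which symbols, GRCh38 positions, exon lengths and transcripts were taken.

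Counts were scaled by TMM (edgeR 4.0.16, R 4.3.3). TMM shifted all log2 ratios from those with library totals by 0.22 (RT against Ctrl), 0.13 (RT + shHDAC6 against Ctrl) and -0.084 (RT + shHDAC6 against RT). Log2 ratios, with a count of 0 set to 0.5, received 95% Clopper-Pearson intervals (scipy 1.17.1). With 1 library per condition, neither edgeR's nor DESeq2's test could be run. The study's NOISeq probability was replaced by a fixed 2-fold rule. Named genes are the 10 members, list genes that were called, receptors and related ligands with at least 10 counts, 2 nearest genes per member with at least 100 counts, and HDAC6; other list genes are named for their role, chosen after their values were seen. The members and the 11 further lists were chosen with earlier results of these data known. Alternatives covered the scaling (library totals, upper quartile, and DESeq2 1.42.0 size factors), zeros, fold, depth and length. Of the listed ligands, 1 is not reported here and was left out of its list.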

Additional observations from a re-analysis of the deposited data

How the results depend on the processing

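No paired analysis was possible because each condition has 1 library, and for the same reason no library was left out. For RT against Ctrl, the number of the 10 genes called was 2 and became 1 with DESeq2's size factors, 1 at 3-fold, 1 when the counting interval also had to exclude no change, 1 with at least 100 counts, 3 without the filter (IL1A added), and 4 at 1.5-fold (CSF1, PTX3 and IL6 higher, IL11 lower). CSF1 was called higher under each of these. For RT + shHDAC6 against RT it was 5 and became 3 at 3-fold (IL1B, PTX3 and CSF3) 2 with at least 100 counts (PTX3 and CSF3), 4 with library totals or when the interval had to exclude no change (IL6 lost in both), and 6 without the filter (IL1A added). For RT + shHDAC6 against Ctrl it stayed within 3 to 4. Of 96 log2 ratios of single genes under another scaling or zero, 0 changed sign, and 8, all of CSF1 or LIF, moved beyond their counting interval. Over all genes, 975 higher and 1858 lower calls for RT against Ctrl became 2938 and 4156 at 1.5-fold, 204 and 632 at 3-fold, 4036 and 5149 without the filter, and 537 and 278 with at least 100 counts. For RT + shHDAC6 against RT, 828 and 909 became 1917 and 1888, 303 and 374, 3032 and 5179, and 120 and 259. For RT + shHDAC6 against Ctrl, 1001 and 2134 became 2830 and 4182, 286 and 923, 4157 and 5309, and 452 and 562. When the interval also had to exclude no change, the counts were 842 and 1246, 519 and 701, and 865 and 1613. Depth limits IL1RN and IL6, whose intervals included no change in each comparison, and IL1A and CSF2, which were at or under 3 counts.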

Other observations

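Markers of other cell types were counted as well. All 10 fibroblast markers had at least 10 counts in every library, and their summed counts were 19798, 10975 and 10845 (Ctrl, RT, RT + shHDAC6). In the irradiation comparison all 10 were below 0 on the log2 scale (median -0.51), and 0 were called. Of all 20267 genes with the depth, 10992 were below 0 there. DCN, a proteoglycan of connective tissue, had 1085, 525 and 683 counts, and LUM, another, had 562, 242 and 344. In the shHDAC6 comparison the median was 0.25, with 0 called. All 8 endothelial markers had counts in every library, 3515, 3784 and 4221 in sum, most of them from ESAM, with 2284, 3214 and 3430. On the log2 scale their median was -0.60 in the irradiation comparison, with 1 called lower (CLDN5), and 0.33 in the shHDAC6 comparison, with 0 called. Over all genes 14.0% were called in the irradiation comparison and 9.14% in the shHDAC6 comparison, with median log2 ratios of -0.062 and -0.003. Leucocyte markers had medians of -0.31 and 0.29.

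Of the 15 urothelial markers, 11 had at least 10 counts in the irradiation comparison, with 2 called lower (TP63 and UPK1A), against 9.17% of all genes. In the shHDAC6 comparison 2 of 10 were called lower, against 4.78% of all genes. Of the same 10 markers, 6 were above 0 on the log2 scale and 4 below, with a median of 0.14. KRT7, a keratin of simple epithelia and urothelium, had 3533, 3854 and 597 counts, and GATA3, a urothelial transcription factor, had 2320, 1423 and 709, a log2 ratio of -1.07 (interval -1.20 to -0.94). KRT18 had 7336, 8362 and 9048 counts.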
